A study of Homo sapiens with 8 samples.

Results

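The integrated stress response was followed through the mRNAs of 10 of its genes, taken by name from the 57756 genes listed in the deposited tables. Of these, 5 mRNAs are known for upstream open reading frames (uORFs), namely ATF4, ATF5, DDIT3, PPP1R15A, and PPP1R15B, and the other 5 are EIF2AK3, EIF2AK4, TRIB3, CHAC1, and ASNS. The libraries came from RNA immunoprecipitation (RIP) with an antibody to RPS6, a component of the small subunit of the ribosome, and from the input lysate that was not immunoprecipitated. The 8 libraries formed 4 pairs of RIP and input, each from 1 cancer cell line, for which the labels give no treatment. Hep3B is a hepatocellular carcinoma line, HCT116 a colorectal, DU145 a prostate, and SW1990 a pancreatic cancer line, and each had 1 library of each kind. Differences between RIP and input were therefore tested over the 4 cell lines, and a value within a cell line has no replicate. No pulldown with a control antibody was used here, so RNA held by the beads without RPS6 was not measured. RPS6 binds the ribosome, but the RIP does not tell scanning small subunits from translating ribosomes.

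The integrated stress response is the pathway by which kinases that sense amino acid shortage, unfolded protein, haem shortage, or viral RNA phosphorylate the initiation factor eIF2. Phosphorylated eIF2 blocks its exchange factor eIF2B, so that initiation falls for most mRNAs, while a few mRNAs with uORFs are translated better. In unstressed cells the uORFs of these mRNAs catch scanning ribosomes before the main coding sequence. The pathway's main transcription factor, ATF4, then switches on genes of amino acid supply and, with CHOP, genes of cell death and of the return to normal translation.

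The first transcribed bases were searched for ATG, the start codon. The position of the main coding sequence was not used, so an ATG found in a window may also be a main start codon. In RefSeq (GRCh38.p14), each of the 10 genes had at least 1 window from 250 bases before to 50 bases after an annotated transcript start, 17 windows in all. Of the uORF genes, 3 had an ATG within the first 50 transcribed bases of at least 1 window, and of the other genes 0 had one. Counted by window and not by gene, 40.2% of all 35116 windows had one. ATF5 and PPP1R15B had none in these bases, so the search does not separate the 2 classes. A window of 50 bases covers only the start of a leader, so an ATG further along was not searched for. The stretches of 30 bases that hold the ATG are shown from the first window of each gene, in lower case with each ATG in capitals, together with a stop codon that follows it at once. The ATF4 stretch is at chr22:39520579-39520608 on the + strand, the DDIT3 stretch at chr12:57520465-57520494 on the - strand, and the PPP1R15A stretch at chr19:48872441-48872470 on the + strand.
ATF4: cccacagATGTAGttttctctgcgcgtgtg
DDIT3: gcactgagcgtatcATGttaaagATGagcg
PPP1R15A: cagttgttgatcttATGcaagacgctgcac
The ATG of ATF4 began 28 bases into the transcript and was followed directly by a stop codon, an arrangement present in 1.77% of all windows. DDIT3 had a first ATG at base 35 and a second at base 44 in the same frame. PPP1R15A had its ATG at base 35.

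A second search looked for TGATGNAA, the core of the C/EBP-ATF element through which ATF4 acts, on both strands of the whole 300-base windows. It was found in windows of 3 of the 10 genes, PPP1R15B, CHAC1, and ASNS. Counted by window and not by gene, 3.62% of all windows held it. The stretches below show the match in capitals, at chr1:204412026-204412055 (- strand), chr15:40953251-40953280 (+ strand, where the match lies on the opposite strand), and chr7:97872458-97872487 (- strand). Counted from the transcript start, the matches began at bases -227, -209, and -68, respectively.
PPP1R15B: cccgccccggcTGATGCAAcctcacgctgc
CHAC1: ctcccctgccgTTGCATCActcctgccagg
ASNS: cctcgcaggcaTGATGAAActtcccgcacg
These letters are a description of the sequence and not evidence of binding, and RIP does not measure transcription.

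The input libraries held between 35796166 and 54209632 recovered fragments and the RIP libraries between 34630363 and 42610074. The titles of the liver cancer pair read 3B, which is Hep3B in the study's methods, whereas their cell line field reads Huh7. Albumin was at 5030 FPKM (fragments per kilobase of transcript, scaled to 1000000 mapped fragments) in its input and at most 0.938 in the other inputs. Markers of the other tissues of origin were less clear. KLK3, HOXB13, and TMPRSS2 were listed at 0 in the DU145 input, which held KRT7 at 254 FPKM, and the SW1990 input held KRT7 at 3.17, CEACAM6 at 0, and CDX2, an intestinal factor, at 86.6 FPKM. The labelled names are kept. The tables of Hep3B and HCT116 and of DU145 and SW1990 were scaled separately, so levels set across these pairs of lines carry that limit, while a RIP and its input always came from 1 table.

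Over the 4 cell lines, the mRNAs of 3 genes were higher in RPS6 RIP than in input, TRIB3, CHAC1, and EIF2AK4, and those of 3 genes were lower, ATF4, DDIT3, and PPP1R15B. All 3 that were higher belong to the 5 mRNAs not known for uORFs, and all 3 that were lower belong to the 5 uORF mRNAs. The other 4, ATF5, PPP1R15A, EIF2AK3, and ASNS, did not pass the test. Calls were made at an adjusted p under 0.05 with edgeR's quasi-likelihood test, with the cell line as a block and Benjamini-Hochberg adjustment over all 19921 genes tested. At that threshold 26.5% of all genes tested were higher in RIP and 24.9% were lower, so a call in either direction was common. Of the 13564 protein-coding genes tested, 4377 were higher and 3535 were lower. Without the cell line block, TRIB3 alone kept its call (edgeR adjusted p = 0.00999). When only the Hep3B and HCT116 pairs were used, TRIB3 and CHAC1 kept theirs, and with only the DU145 and SW1990 pairs all 6 did. The FPKM values of all 10 mRNAs are plotted by library.

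**Figure D1:**
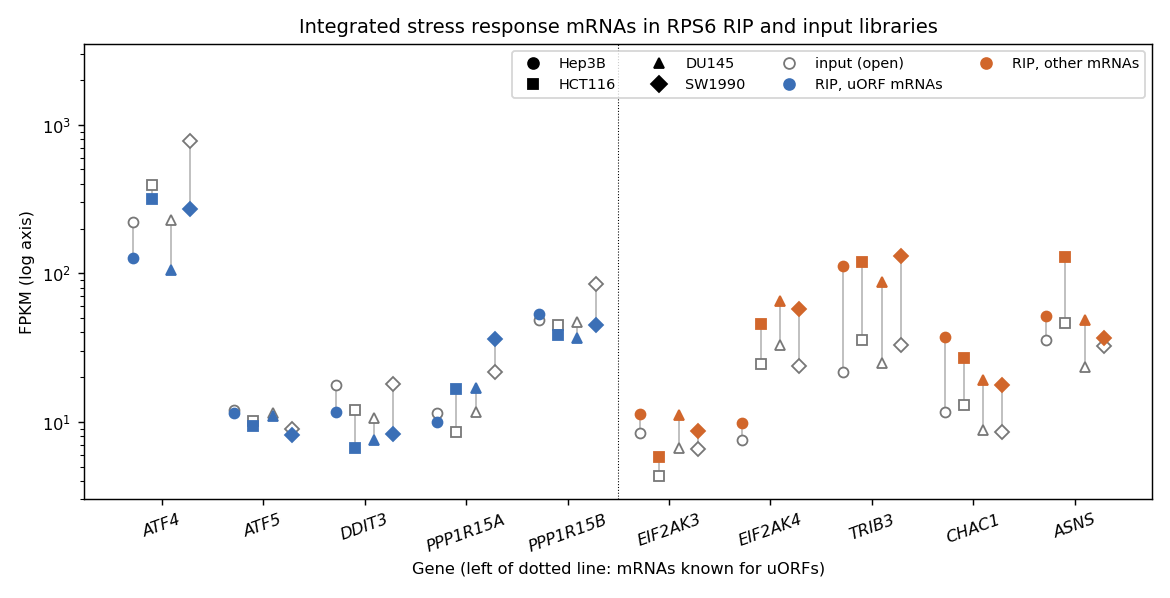
FPKM (log axis) of the 10 mRNAs in each library, with open symbols for input and filled symbols for RPS6 RIP, joined by a line within each cell line (shape). ATF4 lies lower in RIP in all 4 cell lines, whereas every RIP value of TRIB3 and CHAC1 lies above every input value of the same gene.

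ATF4 encodes the transcription factor at the centre of the response and was the most abundant of the 10 mRNAs, per length, in every library. The inputs of Hep3B, HCT116, DU145, and SW1990 cells held 222, 391, 229, and 778 FPKM. In the RIP libraries it was 127, 314, 106, and 269 FPKM in the same order. Every cell line had less ATF4 in RIP than in input, most clearly SW1990 cells, where RIP held 0.346 of the input level, and least HCT116 cells, where it held 0.804, while the ranges of the 2 groups overlapped. The log2 ratio of RIP to input, taken as log2 of (RIP FPKM + 1)/(input FPKM + 1), averaged -0.94 ± 0.51 (SD, n = 4 cell lines). In the fit on counts, ATF4 had a log2 fold change of -1.05 (SE 0.25, edgeR adjusted p = 0.00484). It did not pass without the block (adjusted p = 0.248) or in the Hep3B and HCT116 pairs alone (adjusted p = 0.227). ATF4 (ENSG00000128272) lies on chromosome 22 at 39915699 to 39918691 in human genome version 19, a locus it shares with no other listed gene. Its processed copies took few fragments beside it. The largest, ATF4P3, had at most 679 fragments in a library, against 48829 for ATF4 in the same SW1990 input.

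DDIT3 encodes CHOP, a transcription factor that ATF4 induces and that favours cell death in lasting stress. Its inputs held 17.7, 12.1, 10.6, and 17.9 FPKM in Hep3B, HCT116, DU145, and SW1990 cells, and its RIP libraries 11.7, 6.68, 7.52, and 8.22 FPKM. As with ATF4, RIP was below input in 4 of 4 cell lines, and the 2 groups overlapped only between the Hep3B RIP and the DU145 input. DDIT3 rested on few fragments, with between 672 and 759 in an input and between 175 and 306 in a RIP library. Its log2 fold change on counts was -1.21 (SE 0.23, edgeR adjusted p = 0.00146). With limma on log2(FPKM + 1), which changed both the unit and the test, it was -0.70. The call was lost without the block (adjusted p = 0.0897) and in the Hep3B and HCT116 pairs alone (adjusted p = 0.0502). DDIT3 (ENSG00000175197) is listed in a merged locus on chromosome 12, 57853917 to 57914300, together with 6 other genes including MARS, and how fragments were divided between overlapping genes is not given in the sources used here.

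PPP1R15A (GADD34) and PPP1R15B (CReP) encode the regulatory subunits that direct protein phosphatase 1 to eIF2, the first induced by stress and the second made all the time. PPP1R15B had 48.3, 45.0, 46.7, and 84.3 FPKM in the inputs of Hep3B, HCT116, DU145, and SW1990 cells and 53.5, 38.6, 36.7, and 44.6 FPKM in the RIP libraries. Its inputs were close to each other in 3 cell lines and high in SW1990 cells, where the RIP value did not follow. The log2 fold change of PPP1R15B was -0.57 (SE 0.20, edgeR adjusted p = 0.0390). That call was the weakest of the 6. It was lost without the block (adjusted p = 0.218), without the HCT116 pair (0.0709), the DU145 pair (0.126), or the SW1990 pair (0.156), and with limma on log2(FPKM + 1) (0.217). PPP1R15A ran the other way in most cell lines, with 11.5, 8.58, 11.7, and 21.5 FPKM in the inputs and 9.93, 16.7, 16.8, and 36.1 FPKM in the RIP libraries. RIP was higher than input in 3 of 4 cell lines and lower in Hep3B cells, and the log2 fold change of 0.45 (SE 0.21) did not pass the test (edgeR adjusted p = 0.0911). The phosphatase's regulatory subunits thus had fitted values of opposite sign, and only that of PPP1R15B passed the threshold. Their difference was not tested.

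ATF5 encodes a factor related to ATF4 that also responds to mitochondrial stress, and its level hardly differed between RIP and input. The inputs held 12.0, 10.1, 11.5, and 8.91 FPKM and the RIP libraries 11.4, 9.40, 10.96, and 8.20 FPKM in the same order of cell lines. The RIP values were between 0.920 and 0.957 of their inputs. The log2 fold change on counts was 0.06 (SE 0.19, edgeR adjusted p = 0.807), and its sign turned after centring on protein-coding genes (-0.066) and with limma on log2(FPKM + 1) (-0.080). ATF5 (ENSG00000169136) is listed under a locus on chromosome 19, 50392910 to 50464429, that it shares with 6 other listed genes.

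Among the mRNAs not known for uORFs, TRIB3 and CHAC1 stood highest in RIP. TRIB3 encodes a pseudokinase that ATF4 and CHOP induce and that inhibits AKT. It rose from 21.5, 35.6, 24.98, and 32.9 FPKM in the inputs of Hep3B, HCT116, DU145, and SW1990 cells to 113, 118, 87.2, and 131 FPKM in the RIP libraries. Every RIP library lay above every input, and RIP held between 3.32 and 5.24 times the input level. The log2 fold change of TRIB3 was 1.98 (SE 0.20, edgeR adjusted p = 3.06e-05), which is 3.93-fold, and it passed the threshold under all 14 alternatives, with values between 1.71 and 2.08. Per length, TRIB3 was below both ATF4 and PPP1R15B in all 4 inputs, whereas in the RIP libraries it was below ATF4 alone in 3 cell lines and below ATF4 and ASNS in HCT116 cells. TRIB3 (ENSG00000101255) lies alone at chromosome 20, 361260 to 378203.

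CHAC1 encodes an enzyme that degrades glutathione and is induced through ATF4. The inputs held 11.6, 13.1, 8.79, and 8.55 FPKM and the RIP libraries 37.1, 27.0, 19.2, and 17.7 FPKM, and here too the groups did not overlap. RIP was between 2.06 and 2.18 times the input in HCT116, DU145, and SW1990 cells and 3.20 times in Hep3B cells. CHAC1 had a log2 fold change of 1.26 (SE 0.20, edgeR adjusted p = 0.000401), and the test without the block gave 0.0956. It lies alone at chromosome 15, 41245159 to 41248710 (ENSG00000128965). Of the 10 mRNAs, TRIB3 and CHAC1 were the ones whose RIP and input ranges were apart on the FPKM scale, both with RIP higher. Of all genes tested, 10.9% had ranges apart with RIP higher and 8.17% with RIP lower.

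The kinases EIF2AK4 (GCN2), which senses uncharged tRNA, and EIF2AK3 (PERK), which senses unfolded protein in the endoplasmic reticulum, phosphorylate eIF2 itself. EIF2AK4 had 7.52 FPKM in the Hep3B input and 24.6, 33.1, and 23.7 FPKM in the HCT116, DU145, and SW1990 inputs, and 9.80, 45.6, 65.0, and 57.2 FPKM in the matching RIP libraries. Hep3B cells were low in both libraries, and the input range between cell lines, 4.41-fold in FPKM and 7.09-fold in fragments per 1000000, was the widest of the 10 mRNAs, so that the groups overlapped although RIP was higher in 4 of 4 cell lines. Its log2 fold change was 0.76 (SE 0.19, edgeR adjusted p = 0.00636). Without the block, which takes up such differences between cell lines, the adjusted p was 0.509. EIF2AK3 had 8.35, 4.30, 6.66, and 6.51 FPKM in the inputs and 11.3, 5.83, 11.1, and 8.68 FPKM in the RIP libraries. Although RIP was higher in FPKM in every cell line, the fitted log2 fold change on counts was 0.27 (SE 0.21, edgeR adjusted p = 0.308), and on scaled counts the Hep3B ratio was -0.24.

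ASNS encodes asparagine synthetase, a classic ATF4 target of amino acid shortage. Its inputs held 35.5, 46.3, 23.4, and 32.5 FPKM and its RIP libraries 51.4, 128, 48.2, and 36.5 FPKM. HCT116 cells had the highest level in both libraries, and RIP exceeded input by 2.78 times there but by only 1.12 times in SW1990 cells. On counts, the log2 fold change of 0.44 (SE 0.23) did not pass the test (edgeR adjusted p = 0.136). On log2(FPKM + 1) it was 0.79 and passed (adjusted p = 0.0237 from limma), a fit that changed both the unit and the test. On scaled counts the Hep3B log2 ratio of ASNS was -0.11, opposite in sign to its FPKM ratio. FPKM and counts of 1 library can move apart where the mix of isoforms, and with it the length that FPKM divides by, differs between libraries, and that mix was not measured here. PPP1R15B, EIF2AK3, EIF2AK4, and ASNS are also listed in loci merged with 1 to 3 other genes each.

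Levels across the cell lines were described from the inputs, each a single library. ATF4 and PPP1R15B were highest in SW1990 cells, as were DDIT3 and PPP1R15A, so that 4 of the 5 uORF mRNAs had their highest input there. ATF5 and EIF2AK3 were highest in Hep3B, EIF2AK4 in DU145, and TRIB3, CHAC1, and ASNS in HCT116 cells. Some neighbours in these orders could not be told apart at this depth. DDIT3 had 20.1 fragments per 1000000 in the Hep3B input (95% Poisson interval 18.6 to 21.6) and 20.5 in the SW1990 input (19.04 to 21.99). PPP1R15B had 232.8 in the Hep3B (227.9 to 237.9), 233.3 in the HCT116 (228.9 to 237.8), and 239.5 in the DU145 input (235.4 to 243.7). These intervals cover counting error only, since fragments are not independent molecules.

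The 2 classes of mRNA were set side by side as the list of genes was chosen, with 5 genes in each. The median fitted log2 fold change was -0.57 for the uORF mRNAs and 0.76 for the others, beside -0.05 for all genes tested and 0.13 for protein-coding genes tested. In each cell line, 1 of the 5 uORF mRNAs had a higher FPKM in RIP than in input, PPP1R15B in Hep3B and PPP1R15A in the others, and all 5 of the other mRNAs did. For comparison, between 50.2% and 54.4% of all genes tested were higher in RIP on that scale. In Hep3B, HCT116, DU145, and SW1990 cells the medians of the uORF mRNAs were -0.20, -0.22, -0.34, and -0.90, while those of the others were 0.52, 0.99, 1.01, and 0.97. The uORF mRNAs were thus lower in the median in all 4 cell lines, by -0.72, -1.21, -1.35, and -1.87, a mean of -1.29 ± 0.47 (SD, n = 4). On TMM-scaled counts, 1 or 2 of the 5 uORF mRNAs were higher in a cell line, and of the others 3 in Hep3B and 5 in each of the remaining cell lines. The 10 genes were not drawn at random and are not replicates, so this difference was not tested.

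**Figure D2:**
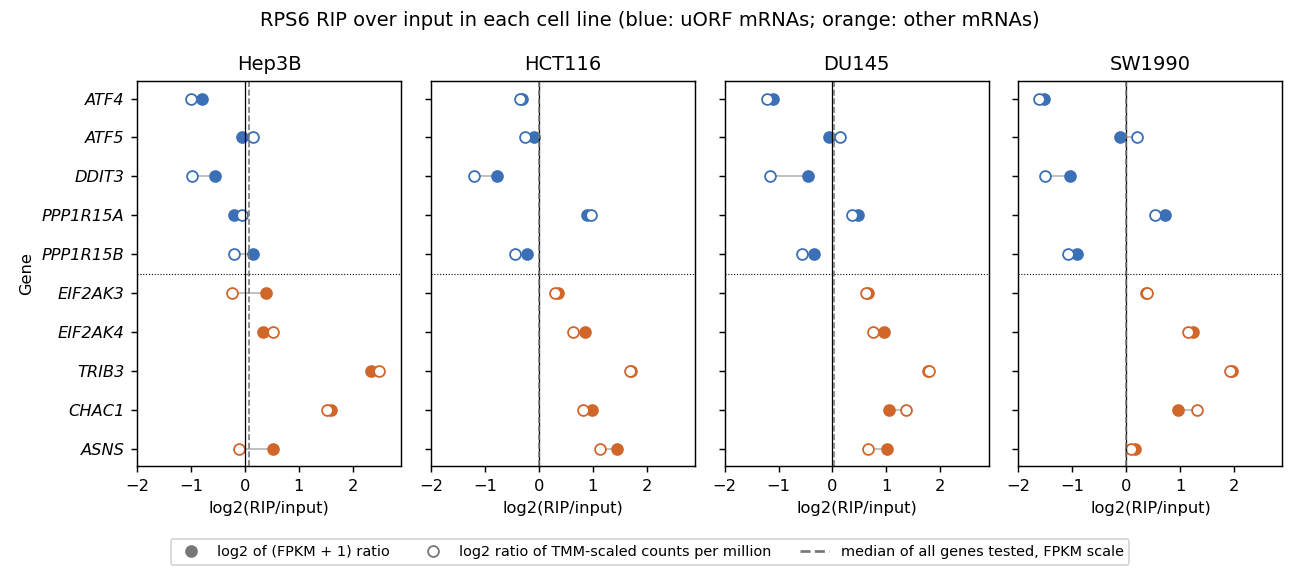
Log2 ratio of RPS6 RIP to input for each mRNA in each cell line, from FPKM + 1 (filled) and from TMM-scaled counts (open), with uORF mRNAs in blue above the dotted line, the other mRNAs in orange below it, and the median of all genes tested as a dashed line. ATF4 and DDIT3 lie left of 0 in every panel on both scales, and TRIB3, CHAC1, and EIF2AK4 lie right of 0.

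Values also varied within each class. The uORF class ranged from -1.21 for DDIT3 to 0.45 for PPP1R15A, and the others from 0.27 for EIF2AK3 to 1.98 for TRIB3. A further list held 9 mRNAs with regulatory uORFs outside the pathway's core. Of these, 4 were higher in RIP, 3 were lower, and 2 did not pass, beside 26.5% higher and 24.9% lower over all genes tested. Their median log2 fold change was 0.73, beside -0.05 for all genes tested and 0.13 for protein-coding genes tested. Those higher were CEBPB (1.71) and CEBPA (1.71), which encode transcription factors with isoforms set by a uORF, SLC35A4 (1.12), and MIEF1 (0.73). Those lower were AMD1 (-2.20), an enzyme of polyamine synthesis whose uORF responds to polyamines, IBTK (-0.65), and IFRD1 (-0.54).

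Fold changes moved with transcript length. Over 13557 protein-coding genes, the log2 fold change had a Spearman rho of 0.31 with the length implied by FPKM and fragments. This is a correlation across genes that share the same 8 libraries. That length is a median over RIP and input libraries, which can imply different lengths for a gene. In Hep3B cells, ATF4 had 391 fragments per 1000000 at 222 FPKM in input and 169 at 127 FPKM in RIP, a shorter implied length. For ATF5 these were 27.8 at 12.0 FPKM and 26.8 at 11.4 FPKM, nearly the same implied length. Median fold changes were -0.75 on the log2 scale for lengths under 1 kb and 1.04 for lengths of 5 kb or more. DDIT3 had an implied length of 0.943 kb, in a class where 45.1% of genes were lower in RIP and 11.3% higher. ATF4 (1.51 kb) and CHAC1 (1.57 kb) were nearly equal in implied length and had log2 fold changes of -1.05 and 1.26. In their class, from 1.5 to 2 kb, 26.3% of genes were lower in RIP and 33.2% higher. PPP1R15B (4.13 kb) and EIF2AK4 (4.25 kb) were likewise alike in length, with log2 fold changes of -0.57 and 0.76, in a class from 4 to 5 kb where 45.7% were higher and 13.3% lower. TRIB3 (2.10 kb) and ATF5 (2.17 kb), also alike in length, were both above 0, at 1.98 and 0.06. They were in the class from 2 to 3 kb, where 35.1% were higher and 22.6% lower. The uORF mRNAs and the others had median implied lengths of 2.17 and 2.10 kb. Fold changes also moved with the GC content of the promoter windows (Spearman rho 0.20 over 11028 protein-coding genes). That GC content was between 56.0% and 69.7% for the uORF genes, with a median of 59.8%, and between 57.7% and 76.0% for the others, with a median of 66.0%. The part of length and of GC content in the values of the 10 mRNAs was not tested.

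**Figure D3:**
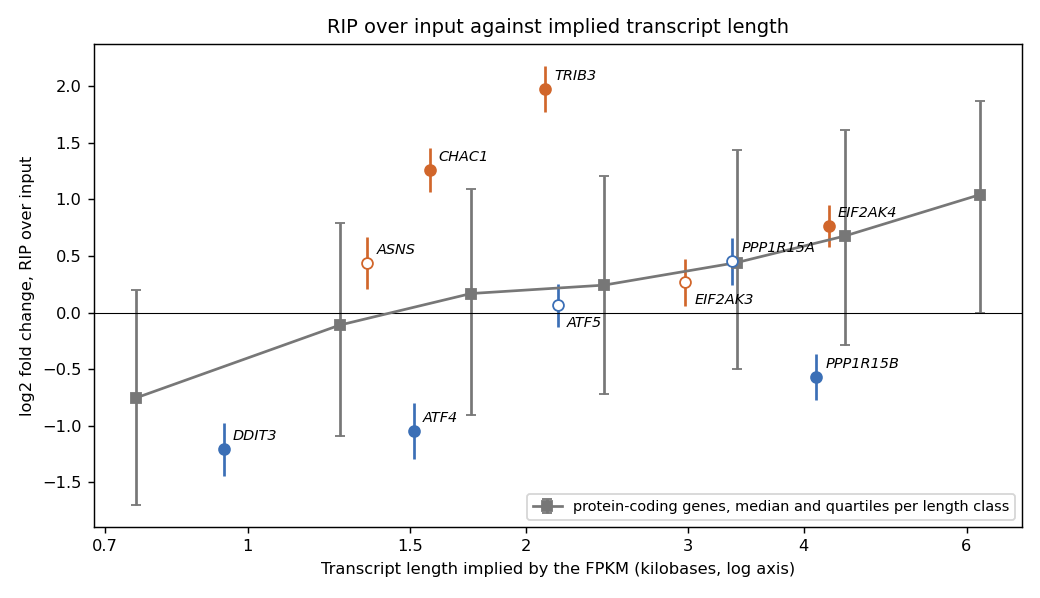
Fitted log2 fold change of RIP over input against implied transcript length (kilobases, log axis), with the median and quartiles of protein-coding genes per length class in grey, uORF mRNAs in blue, and the others in orange (bars are SE, open circles did not pass the test). ATF4 and CHAC1, and PPP1R15B and EIF2AK4, are pairs of similar implied length on opposite sides of 0. ATF5 and TRIB3, also similar in implied length, both lie above 0.

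The genes on which the pathway acts were described from lists made for this purpose. Among 13 genes of the eIF2 and eIF2B machinery, 5 were higher in RIP, 7 were lower, and 1 did not pass, beside 26.5% higher and 24.9% lower over all genes tested. Their median log2 fold change was -0.91, beside -0.05 for all genes tested and 0.13 for protein-coding genes tested. Grouped by complex after the values were seen, all 3 subunits of eIF2 were lower in RIP and 4 of the 5 subunits of eIF2B, its exchange factor, were higher. EIF2S2, the beta subunit of eIF2, had a log2 fold change of -2.10 (SE 0.20), and EIF2B4 and EIF2B2 had 1.401 (SE 0.18) and 1.13 (SE 0.20). The kinases of eIF2 in this list ran opposite to EIF2AK4. They were EIF2AK2 (PKR), which senses double-stranded RNA, at -2.27 (SE 0.18), and EIF2AK1 (HRI), which senses haem, at -1.03 (SE 0.20). EIF2AK3, at 0.27 (SE 0.21), had the sign of EIF2AK4 but did not pass the test. Of the catalytic subunits of protein phosphatase 1, 1 was higher, PPP1CA (0.56), and 2 were lower, PPP1CC (-1.19) and PPP1CB (-1.01).

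Among 28 target genes of ATF4 and CHOP, 14 were higher in RIP, 7 were lower, and 7 did not pass, beside 26.5% higher and 24.9% lower over all genes tested. The median log2 fold change was 0.52, beside -0.05 for all genes tested and 0.13 for protein-coding genes tested. The highest were SESN2 (2.28, SE 0.20), a leucine sensor that restrains mTORC1, SLC1A5 (2.01, SE 0.22), a glutamine carrier, PHGDH (2.005, SE 0.20), the first enzyme of serine synthesis, and PCK2 (1.95, SE 0.18), the mitochondrial phosphoenolpyruvate carboxykinase. TRIB3 and SESN2 thus had fold changes of similar size. The lowest were CEBPG (-2.43, SE 0.18), a leucine zipper partner of ATF4, NUPR1 (-1.89, SE 0.46), a small stress-induced nuclear protein, ERO1L (-1.27, SE 0.20), an oxidase of disulfide formation, and SLC7A11 (-1.11, SE 0.18), the cystine carrier. The number of targets lower in RIP was close to the share over all genes.

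**Figure D4:**
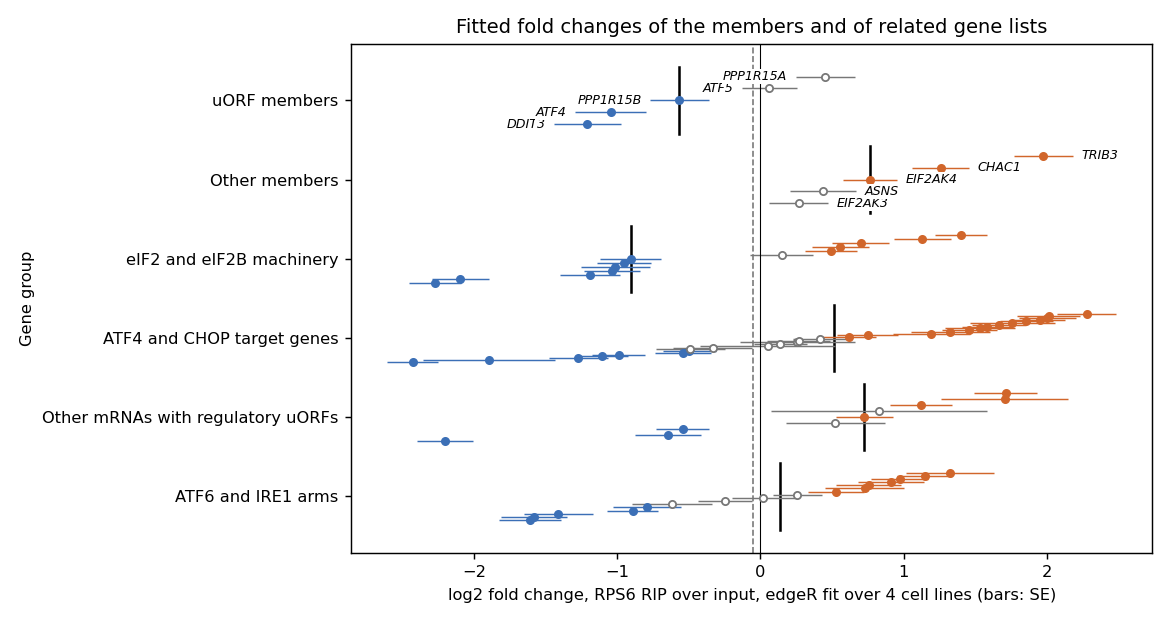
Fitted log2 fold change of RPS6 RIP over input (points, bars are SE) for the uORF mRNAs, the other mRNAs, and 4 lists of related genes, in blue where lower, orange where higher, and open grey where the test was not passed. Black bars are the median of each group and the dashed line is the median of all genes tested, -0.05.

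The pattern of ATF4 over the 8 libraries was set against those of 15911 other genes, by Pearson's r on log2(FPKM + 1). These were genes tested whose mean reached 1 FPKM. The most similar were SAP18 (r = 0.99), SEPW1 (r = 0.98), and GLRX5 (r = 0.98). Their log2 fold changes, which the choice by likeness to ATF4 partly fixes, were -1.17, -1.81, and -1.07. Among the 10 mRNAs, TRIB3 and CHAC1 were each other's nearest (r = 0.85), as were DDIT3 and PPP1R15B (r = 0.77), and PPP1R15A and EIF2AK4 (r = 0.59). The nearest to ATF4 was PPP1R15B (r = 0.63), to ASNS CHAC1 (r = 0.71), to EIF2AK3 CHAC1 (r = 0.45), and to ATF5 EIF2AK3 (r = 0.30). These correlations describe 8 libraries that come in 4 pairs and were not tested.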

How the data were processed

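RPS6 RIP and input RNA of 4 cell lines was sequenced from stranded total RNA libraries, and per the labels and the study's methods the reads were aligned to human genome version 19 (TopHat2 2.0.9, CASAVA 1.8). The authors deposited FPKM and an estimated count (expected count) per gene and library. The counting tool, annotation release, and use of strand are not given in the sources used here. The deposited counts are multiples of a step between 0.673 and 1.27 per library, and 90.1% to 92.6% of values became whole fragments (within 0.02) after division by it. These fragments give the depth. The authors' own fold changes, p-values, and q-values of 1 library against 1 were not used.

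Counts were rounded, filtered to a mean of at least 10, normalized by TMM, and tested with edgeR 4.0.16 (quasi-likelihood, R 4.3.3), with the cell line as a block and Benjamini-Hochberg adjustment over all genes. None of the 10 mRNAs lay under the minimum, so the exact test planned for such genes was not needed. RIP and input of a line deviate together from their group means (r between 0.85 and 0.90 across genes, and at most -0.02 with another line's). Subtracting the mean of 4 libraries itself pushes the values between lines below 0, so this contrast does not test the pairing. Each cell line is the pair by design. Alternatives used DESeq2 1.42.0, limma 3.58.1 on log2 FPKM (pseudocount 1 or 0.1), other minimums, centring, recovered fragments, no block, and 3 of the 4 pairs. Fits on the pairs of 1 table were added after the data were seen. Ratios per line from scaled counts used a prior count of 0.5. The implied length of a gene is its fragments over FPKM and depth, the median over libraries with at least 20 fragments.

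Genes named are the 10 mRNAs, at most the 4 highest and 4 lowest called genes of each list, genes most like ATF4, and copies of the 10 genes. The 10 genes and the lists were chosen with earlier results of these data known. Sequences are from RefSeq (GRCh38.p14). Python 3.11.15 with pandas 2.3.3, NumPy 2.4.6, and matplotlib 3.10.9 did the rest. The fits were tested on simulated counts.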

Additional observations from a re-analysis of the deposited data

Results flagged for a closer look

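In 2 genes 1 cell line moved against the others on the FPKM scale, and neither difference was tested. PPP1R15A had a log2 ratio of RIP to input of -0.20 in Hep3B cells and was higher in RIP in the other 3. PPP1R15B had 0.14 in Hep3B cells and was lower in the other 3, although on scaled counts its Hep3B ratio was -0.21, so that all 4 were lower. A cell line stood apart from the other 3 by Dixon's test in 3 of the 30 groups of 4 values examined, where chance gives about 1 in 20. The PPP1R15B input of SW1990 cells was high at 84.3 FPKM. EIF2AK3 had its highest log2 ratio, 0.66, in DU145 cells, beside 0.37 to 0.40 in the others. CHAC1 had its highest log2 ratio, 1.60, in Hep3B cells, beside 0.97 to 1.04 in the others.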

How the results depend on the processing

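The counts of 3 mRNAs higher and 3 lower were unchanged with DESeq2, without a minimum on counts, with a mean of at least 50 counts, after centring on protein-coding genes, with recovered fragments, and without the Hep3B pair. Without the replicate block for cell line, 1 mRNA was higher and 0 were lower. With limma on either FPKM scale 4 were higher and 2 lower, since ASNS gained its call and PPP1R15B lost it. With 1 pair left out, 3 were higher each time and between 2 and 3 lower. In the Hep3B and HCT116 table alone 0 were lower, and these pairs give 2 lines only. The median of the uORF mRNAs minus that of the others was -1.33 on the log2 scale and lay between -1.76 and -0.90 under the 14 alternatives, and between -1.53 and -1.04 with 1 pair left out. ATF5 changed sign after centring (-0.066), with limma (-0.080 with a pseudocount of 1 and -0.087 with 0.1), without the Hep3B pair (-0.059), and in the Hep3B and HCT116 table (-0.11), where EIF2AK3 did too (-0.031), and neither was called in any of these. The cause of these changes was not tested. Of 140 values of single mRNAs under the alternatives, 118 kept direction and side of the threshold, 14 lost their call, 2 gained one, and 6 changed sign. In fragments per 1000000 instead of FPKM, the input range between cell lines moved most for EIF2AK4, from 4.41-fold to 7.09-fold. With 1 RIP library per cell line, differences between cell lines cannot be told apart from the spread between pulldowns.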

Other observations

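The other arms of the unfolded protein response, which share the signal of PERK but not its target eIF2, included genes higher and genes lower in RIP. Of 16 genes of the ATF6 and IRE1 arms, 7 were higher in RIP, 5 were lower, and 4 did not pass, beside 26.5% higher and 24.9% lower over all genes tested. Their median log2 fold change was 0.14, close to the 0.13 of protein-coding genes tested, while that of all genes tested was -0.05. The highest were ATF6B (1.32, SE 0.31), a relative of ATF6, MBTPS1 (1.15, SE 0.19), the protease that cuts it, ERN1 (0.97, SE 0.20), which encodes IRE1, and PDIA4 (0.91, SE 0.23), a disulfide isomerase. The lowest were DNAJC3 (-1.61, SE 0.22) and DNAJB9 (-1.58, SE 0.23), co-chaperones of the endoplasmic reticulum, HSP90B1 (-1.41, SE 0.24), its HSP90, and XBP1 (-0.89, SE 0.18), the mRNA that IRE1 splices. DNAJC3 is also known as an inhibitor of eIF2 kinases. The RPS6 mRNA itself had a log2 fold change of -2.24 (SE 0.28).

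Copies of ASNS held few fragments, with at most 33 in a library for ASNSP1, against at least 1624 for ASNS.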
